A study of Xenopus laevis with 12 samples.

Results

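Strong Sox3 sites of blastula stem cells (stage 9) that carry no Sox3 peak at stage 11.5, in explants induced to form neural plate border, are described here. Members were selected on the values of the deposited peak lists: a stage 9 peak on an assembled chromosome, at the highest possible peak score of 1000, at least 500 bp wide and overlapped by no stage 11.5 peak. This gave 7606 peaks, called lost below, out of 9161 peaks with the same score and width and out of 124076 stage 9 peaks in all. The other 1555 strong peaks shared 1 bp or more with a stage 11.5 peak and are called held. Lost peaks therefore made up 83.0% of the strong peaks (Wilson 95% interval 82.2 to 83.8%, counting error only), whereas 97.4% of all 115224 stage 9 peaks on chromosomes had no stage 11.5 overlap. The selection fixes these shares, so they were not tested.

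Both lists come from animal pole explants of wild-type Xenopus laevis embryos, with 3 Sox3 and 3 control libraries at each stage. At stage 9 the Sox3 explants had received mRNA for Myc-tagged Sox3, and no treatment is listed for the controls. At stage 11.5 both the Sox3 explants and their controls carried Wnt8a and Chordin mRNA, which induce a neural plate border state, and only the former also carried Sox3 mRNA. Chromatin was precipitated with an antibody to the tag, so the binding is that of the injected protein, in pools of explants, and not of endogenous Sox3. Each stage has 1 list, and which replicates entered the stage 11.5 list is unclear from its header, so no value per library and no spread between replicates can be given. The number of reads per library is unknown, the stages were sequenced on different instruments, and the stage 11.5 list held only 5300 peaks. In what follows, lost means that no peak was listed there at stage 11.5, and loss of binding and a smaller chance of calling a peak cannot be told apart.

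Sox3 is a SoxB1 transcription factor. It binds DNA through an HMG box, usually beside a partner factor, and SoxB1 factors are known to keep cells in a pluripotent or progenitor state and to act early in neural development. Animal pole cells of the blastula can form many cell types, while the neural plate border that forms during gastrulation gives rise to neural crest and placodes. Xenopus laevis is an allotetraploid, and its chromosomes fall into a long (L) and a short (S) subgenome. The lists name transcripts only by internal numbers, and 0 of 45796 identifiers matched the gene table used here, so sites are given by position on the 9.2 genome and by transcript number.

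Lost peaks, all at least 500 bp wide by the selection, covered 5285576 bp. Their median width was 644 bp (quartiles 566 and 762 bp), and the widest measured 2542 bp. Held peaks, under the same limits, had a median width of 730 bp (quartiles 612 and 880 bp), and the widest measured 4299 bp. The median held site was thus the wider one. All other stage 9 peaks on chromosomes had a median of 211 bp, but the width limit of the selection builds in this contrast. The score is at its maximum in every strong peak, so within this set it ranks no peak above another. Width still varies, but the list does not show whether width measures the strength of binding.

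The share lost was lower in wider classes. From 500 to under 600 bp, 2770 of 3107 strong peaks were lost (89.2%, Wilson 95% interval 88.0 to 90.2%). From 600 to under 700 bp the share was 85.9%, from 700 to under 800 bp 80.1%, and from 800 to under 1000 bp 73.6%. From 1000 to under 1500 bp it was 74.2%, and its interval overlapped that of the class before it. Only 84 strong peaks were 1500 bp or wider, and 44 of these were lost (52.4%, Wilson 95% interval 41.8 to 62.7%). Peak width itself sets how much sequence another peak can overlap, and its part in these shares was not tested. Over all strong peaks the share was nearly the same, 83.1%, when the midpoint of the stage 11.5 peak had to lie inside the stage 9 peak. That share was not divided by width, and a wider peak also takes in more midpoints. It therefore cannot show what part width has in the order of the classes.

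**Figure D1:**
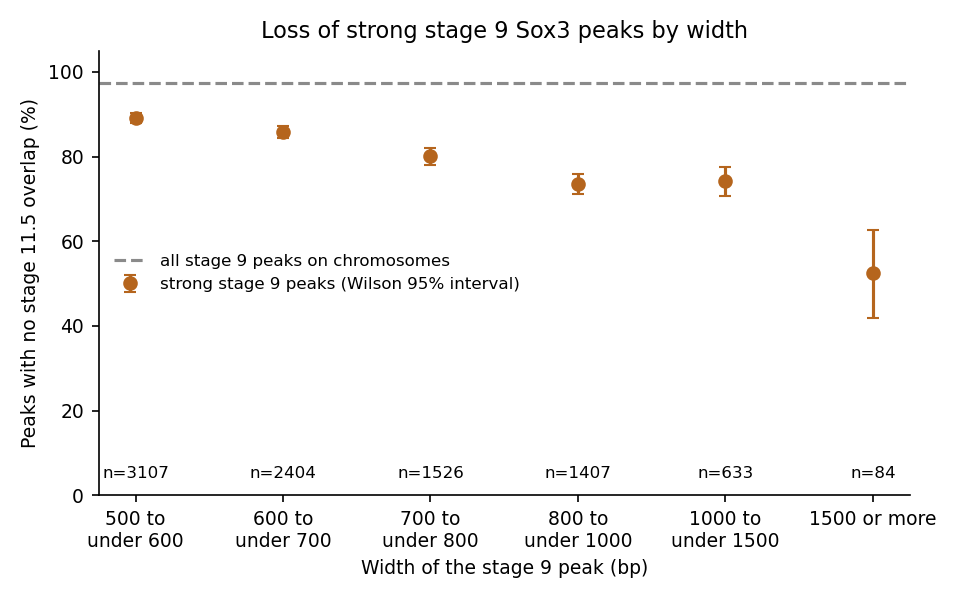
Share of strong stage 9 Sox3 peaks with no overlapping stage 11.5 peak (y axis, %) in 6 classes of peak width (x axis, bp), with Wilson 95% intervals; the dashed line is the share over all stage 9 peaks on chromosomes, 97.4%. The share is 89.2% in the narrowest class and 52.4% in the widest, and every class lies below the line.

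Both limits of the selection cut through a continuous range. Of the strong peaks less than 10 bp wider than the width limit, 278 of 307 were lost (90.6%), and of the peaks at the maximum score that fell short of it by up to 10 bp, 343 of 378 (90.7%). Among peaks of 500 bp or more that fell short of the score limit by up to 10, 121 of 127 were lost (95.3%). Over whole classes outside the limits the shares were above that of the strong peaks: 96.2% of 6976 wide peaks below the maximum score, 94.8% of 12196 narrower peaks at the maximum score, and 99.4% of 86891 peaks that met neither limit were lost. The strong peaks thus had the lowest share lost of these classes, and held strong peaks made up 52.8% of the 2946 stage 9 peaks on chromosomes that a stage 11.5 peak overlapped.

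Individual sites illustrate the range. The widest lost peak lay at chr7S:56368332-56370873 (2542 bp), in intron 1 of 16 of rna75212 and 1777 bp downstream of its TSS. That transcript had 2 stage 11.5 peaks elsewhere, and the nearest stage 11.5 peak was 19205 bp away. The second, at chr9_10L:2929238-2931464 (2227 bp), lay in intron 2 of 2 of rna86112, 8203 bp from its TSS, with no stage 11.5 peak within 277994 bp. The third, chr2L:88049991-88052129 (2139 bp), was intergenic, 24082 bp upstream of rna56749. The next were chr9_10L:65867224-65869308 (2085 bp) in the single intron of rna23319, 317 bp from the TSS, and chr2L:122722533-122724615 (2083 bp) in an exon of rna78540, 2781 bp from the TSS. These 5 sites thus spanned introns, an exon and intergenic sequence, and for 4 of them no stage 11.5 peak was assigned to the nearest transcript.

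Among held peaks the widest was intergenic, at chr3L:143065808-143070106 (4299 bp), 11209 bp upstream of rna83851. It was followed by chr9_10L:94045455-94048056 (2602 bp) in intron 1 of 8 of rna58604 and by 2 promoter peaks, chr3L:96407773-96410204 (2432 bp) at rna28822 and chr1S:108699208-108701622 (2415 bp) at rna83124. The fifth, chr8L:99756679-99758867 (2189 bp), was intergenic, 6360 bp upstream of rna69466. All 5 lay upstream of their nearest TSS, compared with 1 of the 5 widest lost peaks. These few sites were chosen by width and do not stand for their sets.

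At the other end of the width range, the 5 narrowest lost peaks by position were all 500 bp wide. They lay at chr1L:304569-305068, chr1L:42434948-42435447, chr1L:80081238-80081737, chr1L:131573237-131573736 and chr1S:88312806-88313305. Their gaps to a stage 11.5 peak were between 17830 and 394498 bp, and no stage 11.5 peak was assigned to their nearest transcripts. The 5 unselected peaks just under the limit, 499 bp wide, were similar in kind: 2 lay in introns, 2 were intergenic and 1 lay in an exon. The nearest of them to a stage 11.5 peak was chr2L:118784913-118785411, at 1011 bp.

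Gaps from lost peaks to a stage 11.5 peak were mostly long, but they were not set against gaps of other blastula peaks. The stage 11.5 list is short, at 5300 peaks, and the selection removes every overlap. Long gaps can therefore not be read as a trait of lost peaks. The median gap to the nearest stage 11.5 peak was 167322.5 bp, with quartiles of 43848.8 and 435133.5 bp. A stage 11.5 peak lay within 1 kb of 84 lost peaks (1.10%), within 10 kb of 781 (10.3%) and within 100 kb of 2953 (38.8%). The nearest misses were chr3L:109384457-109385073, a promoter peak 27 bp from a stage 11.5 peak and 44 bp upstream of the TSS of rna87843, and chr1S:64555015-64555539 in intron 3 of 14 of rna34777, at 52 bp. The next 3 had gaps of 65, 65 and 70 bp. The 5 lost peaks farthest from a stage 11.5 peak all lay on chromosomes 6S and 6L, with gaps of 3434052 to 3965080 bp. The farthest pair, chr6S:37153780-37154421 and chr6S:37139604-37140179, shared intron 2 of 18 of rna5211, so 2 strong blastula sites of 1 transcript were the lost peaks farthest from any later peak.

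By genomic feature, lost peaks were mostly intronic or intergenic. Introns held 3283 of 7606 lost peaks (43.2%, Wilson 95% interval 42.1 to 44.3%) and 620 of 1555 held peaks (39.9%, 37.5 to 42.3%). The difference was 3.29 percentage points (95% interval 0.597 to 5.94) and passed the threshold of 0.05 at an adjusted p of 0.0461. Here and below, p-values are two-sided, from Fisher's exact test unless another test is named, and adjusted over 11 properties by the Benjamini-Hochberg method. Promoters, the window around a TSS in the HOMER annotation, held 559 lost peaks (7.35%) and 154 held peaks (9.90%). The difference was -2.55 percentage points (interval -4.24 to -1.04, adjusted p = 0.00319 by the exact test). Put the other way, 78.4% of strong promoter peaks were lost and 84.1% of strong intronic peaks. Within classes of peak width neither difference passed the threshold by the Cochran-Mantel-Haenszel chi-square test over all 9161 peaks, at -1.74 points for promoters (adjusted p = 0.0931) and 2.81 points for introns (adjusted p = 0.120). Among peaks of 750 bp or more the promoter difference was -0.306 points and at 1000 bp or more it was 1.01 points in the opposite direction, while the intron difference missed the threshold at 400, 750 and 1000 bp and by midpoint (2.56, 0.866, 3.89 and 3.16 points).

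In the other feature classes no difference passed the threshold. Intergenic sequence held 41.0% of lost and 41.3% of held peaks, with an interval of the difference of -2.98 to 2.39 points (adjusted p = 0.843, exact test). In exons lay 362 lost peaks (4.76%) and 69 held peaks (4.44%), with an interval of -0.906 to 1.37 points. Transcription termination sites (TTS) held 283 lost peaks (3.72%) and 70 held peaks (4.50%), with an interval of -2.00 to 0.246 points. These tests compare 2 sets of peaks from 1 list, in which neighbouring peaks are not independent, and they do not include variation between replicates.

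**Figure D2:**
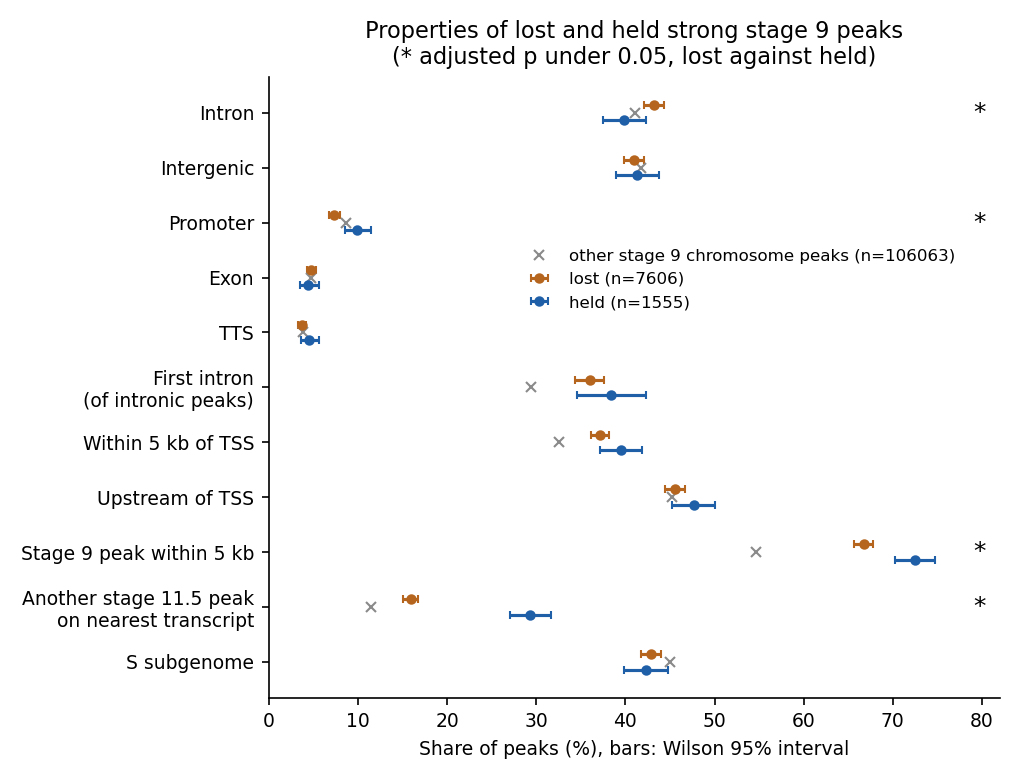
Share of peaks (x axis, %) with each of 11 properties (y axis) among 7606 lost (brown) and 1555 held (blue) strong peaks, with Wilson 95% intervals, and among the 106063 other stage 9 peaks on chromosomes (crosses); intron number is among intronic peaks only. The 4 properties marked with an asterisk differed between lost and held peaks, and the widest gap is in the share of peaks whose nearest transcript has another stage 11.5 peak, 15.9% of lost and 29.3% of held peaks.

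Of the 5 feature classes, promoters had the largest median width of lost peaks. Median widths were 695 bp at promoters, 651 bp at termination sites, 645 bp in exons, 642 bp in introns and 639 bp in intergenic sequence. In each class the held peaks had the larger median, with medians between 723.5 and 754 bp. The median gap from a lost promoter peak to a stage 11.5 peak was 116175 bp, and in the other 4 classes it lay between 169033 and 172927 bp.

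Intron number was spread widely among lost intronic peaks. Intron 1 held 1181 of the 3283 (36.0%), intron 2 held 601 (18.3%), intron 3 held 352 (10.7%) and later introns 1149 (35.0%), up to intron 121 of a transcript. Held intronic peaks lay in intron 1 in 238 of 620 cases (38.4%). The difference in first introns was -2.41 percentage points (interval -6.63 to 1.68) and its adjusted p, 0.351 by the exact test, missed the threshold. For comparison, 29.4% of the weaker or narrower intronic stage 9 peaks lay in intron 1. By intron number, 83.2% of strong peaks in intron 1 were lost, 82.3% in intron 2, 83.4% in intron 3, 85.2% in introns 4 to 6 and 87.2% in intron 7 or later, an order that was not tested. The transcript hosting the intron was also the one with the nearest TSS for 1685 of the lost intronic peaks (51.3%), so in the remainder the assigned transcript is not the one the peak lies in.

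Distances to the nearest TSS were long in both sets. The median was 8577 bp for lost peaks, with quartiles of 2765.2 and 23242.2 bp, and 7697 bp for held peaks, with quartiles of 2289 and 21550.5 bp. Within 5 kb of a TSS lay 2825 lost peaks (37.1%) and 614 held peaks (39.5%), a difference of -2.34 points (interval -5.02 to 0.294) that missed the threshold (adjusted p = 0.186, exact test). Closer in, the sets did differ. Within 1 kb lay 958 lost peaks (12.6%) and 249 held peaks, a difference of -3.42 points (adjusted p = 0.00145, exact test). At 10 kb the difference of -1.98 points missed the threshold (adjusted p = 0.255, exact test). At 50 kb the difference of -2.03 points passed (adjusted p = 0.0434, exact test), with 88.8% of lost and 90.9% of held peaks within that distance. Within classes of peak width the difference at 5 kb was -0.255 points, and among peaks of 750 bp or more it was 2.38 points, in the opposite direction. The differences at 1, 10 and 50 kb were not tested within width classes or among wider peaks.

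Between 1 and 100 kb from a TSS the share lost changed little. Of the strong peaks up to 1 kb from a TSS, 79.4% were lost (Wilson 95% interval 77.0 to 81.6%). From 1 to 5 kb the share was 83.6%, from 5 to 10 kb 83.3%, from 10 to 50 kb 83.0% and from 50 to 100 kb 84.5%. Beyond 100 kb 293 of 333 strong peaks were lost (88.0%, 84.1 to 91.1%). Peaks upstream of the nearest TSS made up 45.6% of lost and 47.7% of held peaks, a difference that missed the threshold (interval -4.79 to 0.646 points, adjusted p = 0.233, exact test).

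**Figure D3:**
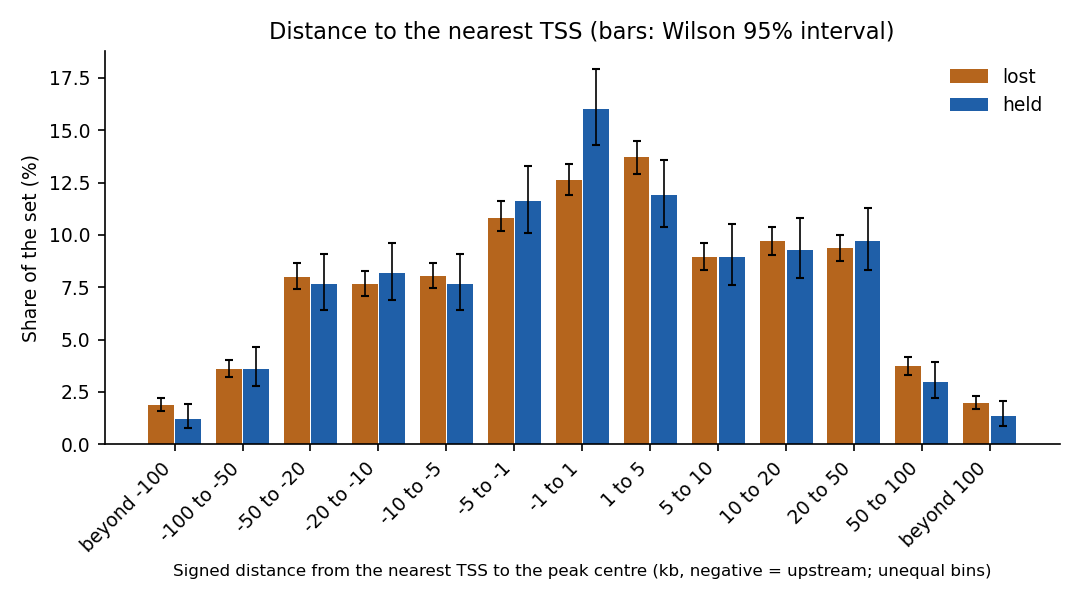
Share of lost (brown) and of held (blue) strong peaks (y axis, %) by signed distance from the nearest TSS to the peak centre (x axis, kb, unequal bins, negative upstream), with Wilson 95% intervals. Within 1 kb of the TSS lie 958 of 7606 lost and 249 of 1555 held peaks.

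Most lost peaks had a blastula neighbour, a smaller share than of held peaks but a larger one than of the other stage 9 peaks. Of those other peaks on chromosomes, 54.6% had a neighbour within 5 kb. Another stage 9 peak of any score lay within 5 kb of 5080 lost peaks (66.8%, Wilson 95% interval 65.7 to 67.8%) and of 1128 held peaks (72.5%, 70.3 to 74.7%). The difference was -5.75 percentage points (interval -8.16 to -3.25, adjusted p = 4.95e-05 by the exact test). It was -6.40 points for neighbours within 1 kb (28.1% of lost and 34.5% of held peaks) and -3.83 points within 10 kb (82.4 and 86.2%). Within classes of peak width it was -3.97 points (adjusted p = 0.0122, Cochran-Mantel-Haenszel chi-square test), but among peaks of at least 750 bp it was -3.27 points, with an adjusted p of 0.512 in the exact test, and among those of at least 1000 bp -3.15 points (0.627).

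Over a larger window the same order was seen. Lost peaks had a median of 7 other stage 9 peaks within 50 kb (mean 8.02 ± 4.69, SD across 7606 peaks) and held peaks a median of 8 (mean 8.90 ± 4.80, SD across 1555 peaks). The means differed by less than 1 SD, and the highest values were 33 and 29. The other stage 9 peaks on chromosomes had a lower median of 6 (mean 6.36 ± 4.28, SD across 106063 peaks). With no neighbour in that window, 68 of 76 strong peaks were lost (89.5%). The share lost was 86.4% with 1 to 3 neighbours, 84.6% with 4 to 7, 81.2% with 8 to 15 and 78.6% with 16 or more (Wilson 95% interval 75.4 to 81.5%). The share was thus lower in each denser class, an order that was not tested.

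The largest difference among the properties was in other stage 11.5 peaks assigned to the same transcript. Lost peaks were assigned to 6457 transcripts by nearest TSS, and 5606 of these had no stage 11.5 peak assigned to them, while 851 (13.2%) had one away from the lost site. A stage 11.5 peak near a lost site can be assigned elsewhere, as at rna87843, where the gap was 27 bp. Of the transcripts of the weaker or narrower stage 9 peaks, 7.36% had a stage 11.5 peak at any position. Counted by peak, 1206 lost peaks (15.9%, Wilson 95% interval 15.1 to 16.7%) had a stage 11.5 peak elsewhere on their transcript, compared with 11.5% of the weaker or narrower stage 9 peaks, so the share of lost peaks lay between those of the other sets. Among held peaks, 456 (29.3%, 27.1 to 31.6%) had a stage 11.5 peak on their transcript besides the one that overlapped them. The difference was -13.5 percentage points (interval -15.9 to -11.1, odds ratio 0.454, adjusted p = 8.13e-32 by the exact test). The stage 11.5 list that this measure uses is also the one that chose the members, although the peaks counted here overlap no lost peak.

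Much of this difference lay close to the site. When only stage 11.5 peaks at least 5 kb away were counted, the shares were 12.1% of lost and 18.0% of held peaks. The difference was then -5.86 points (adjusted p = 2.24e-08 by the exact test), compared with -13.5 points at any distance. Held peaks lie at a stage 11.5 peak by the selection, and the part of clustering among stage 11.5 peaks was not tested. The number of stage 9 peaks on the transcript moved with the measure as well. On transcripts with a single stage 9 peak, 11 of 950 lost peaks (1.16%) and 7 of 155 held peaks (4.52%) had another stage 11.5 peak. With 2 to 3 stage 9 peaks the shares were 6.11 and 15.3%, with 4 to 7 they were 15.2 and 29.9%, and with 8 or more 37.8 and 53.3%. Lost peaks had the lower share in every class. Within these classes the difference over all 9161 strong peaks was -12.1 points (adjusted p = 3.99e-31, Cochran-Mantel-Haenszel chi-square test).

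**Figure D4:**
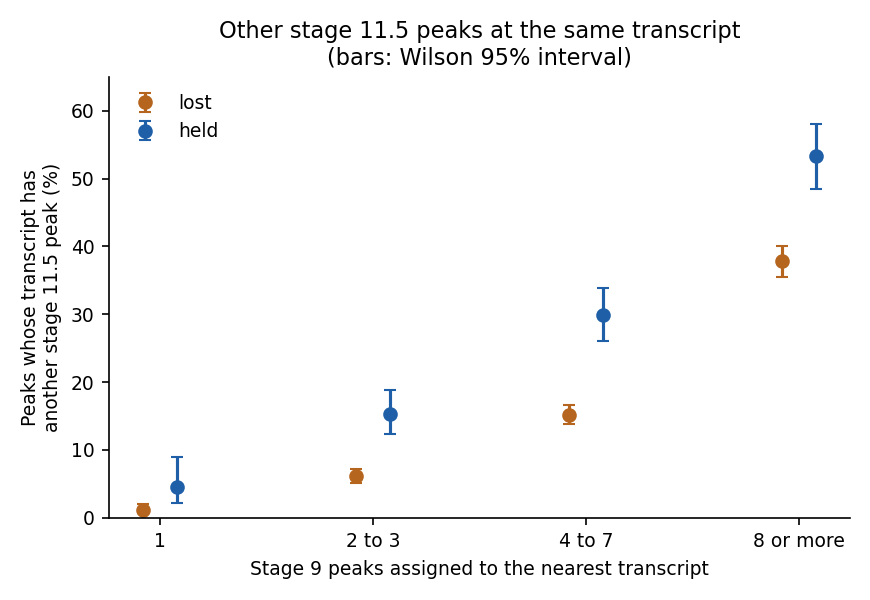
Share of strong peaks whose nearest transcript has another stage 11.5 peak (y axis, %) by the number of stage 9 peaks on that transcript (x axis), for lost (brown) and held (blue) peaks with Wilson 95% intervals. Both shares rise with the number of stage 9 peaks, from 1.16 to 37.8% for lost and from 4.52 to 53.3% for held peaks.

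In most cases at least 1 of the other stage 11.5 peaks of the transcript lay at a blastula site, whichever set the strong peak belonged to. The cases are strong peaks, and the share of stage 11.5 peaks at blastula sites was not counted. In 1039 of the 1206 lost cases (86.2%) at least 1 of the other stage 11.5 peaks overlapped a stage 9 peak. The same held in 86.6% of the 456 held cases and 78.4% of those of the remaining stage 9 peaks. A single stage 11.5 peak was present in 871 cases and up to 8 were seen. The nearest of them lay a median of 11028 bp from the lost site, with quartiles of 3685.2 and 28419.5 bp. For held peaks the corresponding median was 4742 bp. By feature, the share of lost peaks with another stage 11.5 peak was 19.7% for intergenic, 14.3% for intronic, 10.6% for promoter, 9.67% for exonic and 9.54% for termination site peaks. In each class the share of held peaks was higher, between 15.7 and 34.4%.

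Strong sites of 1 transcript did not all share the same outcome. Strong peaks were assigned to 7413 transcripts, of which 5993 had lost peaks only, 956 held peaks only and 464 both. Most transcripts with a lost peak had a single one (5525, 85.6%), 761 had 2 and 171 had 3 or more. On the mixed transcripts lay 674 lost peaks, 8.86% of all lost peaks, and 34.1% of the held peaks. The held set is the smaller one, 1555 peaks beside 7606, so its larger share on mixed transcripts follows in part from set size. Of the 1306 transcripts with at least 2 strong peaks, 781 had lost all, 61 had held all and 464 were mixed. With 83.0% of all strong peaks lost, all-lost and mixed transcripts would both be frequent if peaks were independent. The counts were not tested against that.

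Within 288 transcripts that had exactly 1 lost and 1 held strong peak, the 2 sites lay a median of 8573.5 bp apart. The held site was the wider one in 175 of them (60.8%, Wilson 95% interval 55.0 to 66.2%), with median widths of 645 bp for the lost and 729.5 bp for the held site. It was the one nearer to the TSS in 151 (52.4%, 46.7 to 58.1%), an interval that spans an even division. Median distances to the TSS were 11105 bp for the lost and 11226.5 bp for the held sites. Width was among the values that chose the peaks, and a wider peak meets the overlap rule more easily, so these pairs are a description.

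Of the 5 transcripts with the most lost peaks, 3 also had held peaks. The first, rna11223, on chromosome 4S, had 6 lost peaks between positions 65650685 and 65726739, all intergenic and upstream, 2424 to 77603 bp from the TSS. Its 1 held peak lay in between, 3689 bp upstream and 935 bp wide, and the only stage 11.5 peak of the transcript fell there, 463 bp wide with a score of 274. The closest lost peak, 567 bp wide and 2424 bp upstream, was 802 bp from that stage 11.5 peak. On this transcript 17 of the 18 stage 9 peaks were thus without a later peak, among them 2 lost sites of over 1000 bp (1184 and 1011 bp). That count is near the share over all stage 9 peaks on chromosomes, 97.4%, and the transcript was chosen for its lost peaks. It is therefore not a trait of this locus.

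rna95198, on chromosome 8S, also had 6 lost peaks, from 17421 bp upstream to 17620 bp downstream of the TSS, among them a promoter peak of 950 bp at 196 bp upstream. It held 2 sites, at 49022 bp upstream and at 7725 bp downstream. Of the 4 transcripts with 6 lost peaks, the remaining pair had no held peak and no stage 11.5 peak assigned to it. These were rna38683 on chromosome 1S, with all 6 in intergenic sequence 3354 to 81085 bp upstream, and rna96293 on chromosome 4L, with all 6 in intergenic sequence 15495 to 148476 bp downstream. They had 26 and 27 stage 9 peaks in all. Both were chosen for their number of lost peaks, and 97.4% of all stage 9 peaks on chromosomes had no stage 11.5 overlap. The lack of an assigned later peak is thus a description of this pair and no general result. Stage 11.5 peaks not assigned to these transcripts lay nearby. The smallest gap from a lost peak was 4490 bp at rna38683 and 23008 bp at rna96293.

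rna86936, on chromosome 1L, had 5 lost peaks, all in introns and downstream. One of them was 1550 bp wide at 6110 bp from the TSS. Its held peak, at 27140 bp, was 545 bp wide and thus near the width limit. On rna56940, also on chromosome 1L, 4 lost intronic peaks of 655 to 1052 bp lay between 2 held ones at 3772 and 87540 bp from the TSS. On rna5162, on chromosome 9_10L, 4 lost peaks of 733 to 997 bp surrounded a held peak of 993 bp at 7918 bp. At these loci a held site could be narrower than a lost one next to it.

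**Figure D5:**
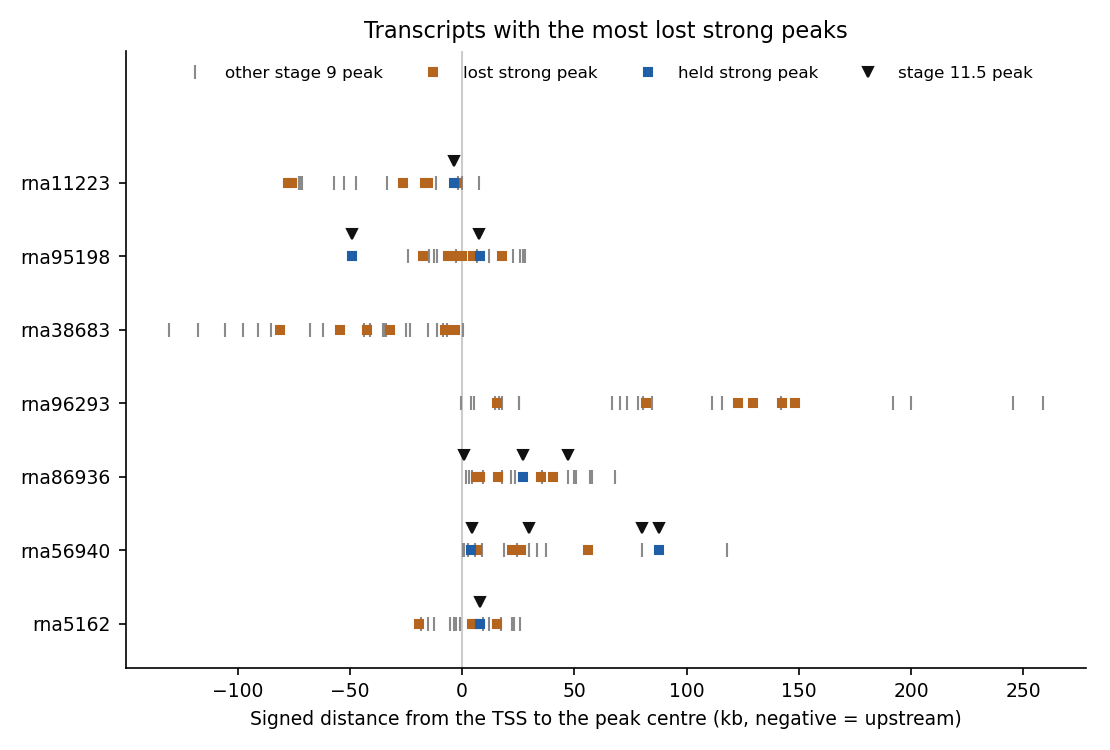
Positions of Sox3 peaks relative to the TSS (x axis, kb, negative upstream) at the 7 transcripts (y axis) with the most lost peaks overall or among transcripts that also have a held peak. Squares mark lost (brown) and held (blue) strong peaks, grey ticks other stage 9 peaks and black triangles stage 11.5 peaks; rna38683 and rna96293 have 6 lost peaks each and no triangle.

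Of all strong peaks 83.0% were lost, and in both sets the nearest other strong peak was usually a lost one. That neighbour was lost for 6344 of the lost peaks (83.4%), close to the share over all strong peaks. It was lost for 1192 of the held peaks (76.7%). For pairs up to 10 kb apart these shares were 80.4% of 1776 lost and 67.1% of 516 held peaks. The median gap to the nearest strong peak was 46862 bp for lost and 25175 bp for held peaks. These values use the outcome that defines the sets and are given without a test.

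No difference between subgenomes passed the threshold. Chromosomes of the S subgenome carried 3264 lost peaks (42.9%) and 658 held peaks (42.3%), a difference of 0.598 points (interval -2.11 to 3.28, adjusted p = 0.741 by the exact test). The direction changed with 1 peak per transcript (-0.972 points). The share lost on the 18 chromosomes ranged from 79.9% of 513 strong peaks on 7L to 88.4% of 423 on 6S.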

How the data were processed

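ChIP-seq was performed on 12 libraries (Sox3 and control, 3 each, at stages 9 and 11.5). The authors used fastp for trimming, bowtie2 for alignment to the 9.2 genome and Genrich, with the controls of the stage as background and a minimum peak area, for calling. HOMER annotated the peaks against a Xenbase annotation. The submitters' processing notes also name Picard without a role, so the handling of duplicates is not given in the sources used here. The deposited peak score was read as the caller's, capped at 1000, so strength above it is not resolved. For stage 11.5 the header leaves unclear which replicates entered. The depth per library is unknown.

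Overlaps, gaps between peak edges, feature classes, intron numbers and transcripts were taken from the lists with Python 3.11.15, numpy 2.4.6, scipy 1.17.1, pandas 2.3.3 and statsmodels 0.14.6, and figures were made in matplotlib 3.10.9. Coordinates are 1-based. Lost and held shares were set against each other with Fisher's exact test (two-sided, Benjamini-Hochberg over 11 properties), or within classes with the Cochran-Mantel-Haenszel chi-square test. Intervals are Wilson intervals for shares and Newcombe intervals for differences and cover counting error only. The functions were tested on simulated peaks. Members, properties and alternatives were chosen with earlier results of these data known. Alternatives covered width, score, overlap, distances, scaffolds and classes. Named sites are the 5 widest lost and held peaks, the 5 narrowest lost and the 5 just under the limit, the 5 lost peaks nearest to and farthest from a stage 11.5 peak, and the 5 transcripts with most lost peaks, overall and among those with a held peak. Gene names, motifs and sequences of the 9.2 genome were not used here.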

Additional observations from a re-analysis of the deposited data

How the results depend on the processing

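Each result was recomputed with other limits of width and score, other overlap rules, unplaced scaffolds, 1 peak per transcript, width classes and other distances. Of 114 comparisons, 87 kept their direction and side of the threshold or moved within their interval, 5 moved, 9 fell short of the threshold, 4 passed it only there and 9 reversed. The cause of these changes was not tested, and stricter limits also left smaller sets.

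The share lost was 85.5, 74.2 and 71.7% with widths of at least 400, 750 and 1000 bp, 84.1% with scores of at least 900, and 82.1% when a stage 11.5 peak within 1 kb counted as held. The intron difference missed the threshold at these widths (2.56, 0.866 and 3.89 points), by midpoint (3.16) and within width classes (2.81). The promoter difference missed it at 750 bp (-0.306) and within width classes (-1.74) and reversed at 1000 bp (1.01). The neighbour difference missed it at 750 and 1000 bp (-3.27 and -3.15). The difference within 5 kb of a TSS passed at 400 bp (-3.87) and with peaks within 1 kb counted as held (-3.17). With other TSS limits the difference passed at 1 and 50 kb (-3.42 and -2.03) and missed the threshold at 10 kb (-1.98). The difference within 5 kb reversed at widths of at least 750 and 1000 bp (2.38 and 3.16). Differences that missed the threshold throughout reversed for intergenic peaks at 400 bp (0.708) and with scaffolds (0.487), for TTS at 750 bp (0.432), and for the S subgenome at 750 bp (-2.70), with 1 peak per transcript (-0.972) and within width classes (-0.0211). The difference in other stage 11.5 peaks passed the threshold in every setting tried, from -17.1 to -5.86 points. The value of -17.1 came with peaks within 1 kb counted as held. There, the stage 11.5 peak that made a site held could itself be counted as another, so part of that difference is built in. Every setting counts from the stage 11.5 list that also divided lost from held peaks, so these results are not independent support.

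No paired analysis was possible because the lists hold no value per replicate, so leaving out single replicates could not be tried either. The unknown depth at stage 11.5 limits what an unlisted site can show.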

Other observations

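On unplaced scaffolds, which the selection leaves out, 459 of 575 stage 9 peaks with the same score and width were lost (79.8%, Wilson 95% interval 76.4 to 82.9%). Of these 575 peaks, 73 had no annotated transcript.

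Chromosomes 6L and 6S, singled out here after their values were seen, had the highest shares of strong peaks lost, 87.1% of 541 (Wilson 95% interval 84.0 to 89.6%) and 88.4% of 423 (85.0 to 91.1%). On the other 16 chromosomes the share lay between 79.9 and 85.1%. The same pair also had the lowest shares of all stage 9 peaks overlapped at stage 11.5, 2.02% of 6937 on 6L and 1.70% of 5695 on 6S, with 8S next at 2.07%. Stage 11.5 peaks numbered 2.60 per 100 stage 9 peaks on 6S, the lowest value, and 3.33 on 6L, where 8S had 3.14. The 2 chromosomes are homeologs of each other. No test was run.

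Of the 1555 held peaks, 1465 were overlapped by a single stage 11.5 peak and 90 by 2 or 3. The 1651 stage 11.5 peaks involved had a median width of 194 bp and a median score of 338. Scores of the 2 lists come from separate calls and were not compared.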
